A study of Mus musculus with 4 samples.

Results

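Meis1, Meis2, Meis3, Pbx2, Pbx3, Pbx4, Pknox1 and Pknox2 are 8 homeobox genes of the TALE class, and their RNA was measured in cerebral cortex of mouse embryos that lack working Pax6. The genes were taken by name from the deposited table of 22770 genes, and all 8 were found and passed the filter of at least 0.5 FPKM (fragments per kilobase of exon, scaled to the mapped fragments of the library) in 2 or more libraries. The mutant group held 2 libraries from embryos homozygous for the Sey (small eye) allele of Pax6, labelled Pax6 sey/sey, and the wild-type group held 2 libraries from littermates. Both groups were at embryonic day 16.5 and on a mixed background of C57BL/6J, 129S6 and CD1, and every cell of a mutant embryo carried the allele, since it is a germline mutation. By its title the series is about the need for Dlx1 and Dlx2 in olfactory bulb interneurons, and these 4 libraries ask which cortical RNAs differ when Pax6 does not work. The labels do not say whether each library is a separate embryo, so the p-values measure only the spread between these libraries, which may be technical.

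TALE proteins carry a DNA-binding homeodomain with an extended loop between its first and second helices. Pbx proteins bind DNA together with Hox and other homeodomain proteins, and Meis and Pknox proteins (also called Prep) bind Pbx and thereby help to keep it in the nucleus and on DNA. In mouse olfactory bulb neurogenesis Meis2 has been described as a partner of Pax6 and of Dlx2, and Meis2 and Pbx genes are expressed in the ganglionic eminences, the ventral forebrain zones that produce GABAergic neurons.

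The homeobox, the 189 bases that code for the homeodomain, is shown for 4 of the genes because it is the sequence that all 8 share and because it shows how alike Pbx3 and the relatives it is compared with are. The sequences are read 5′ to 3′ on the coding strand from GENCODE M21 transcripts (GRCm38), and capitals mark the 9 bases of the loop that code for the proline-tyrosine-proline motif of the class. Each homeobox is joined from 3 exons, so the genomic spans include introns. That of Pbx3 lies at chr2:34178295-34213256 on the minus strand, that of Pbx2 at chr17:34594424-34594848 on the plus strand, that of Meis2 at chr2:115868767-116000205 on the minus strand and that of Pknox1 at chr17:31599569-31603223 on the plus strand.
Pbx3: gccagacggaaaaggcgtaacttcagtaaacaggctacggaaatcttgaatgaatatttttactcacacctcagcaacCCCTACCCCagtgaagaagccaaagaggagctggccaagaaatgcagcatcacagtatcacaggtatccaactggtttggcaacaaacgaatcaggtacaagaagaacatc
Pbx2: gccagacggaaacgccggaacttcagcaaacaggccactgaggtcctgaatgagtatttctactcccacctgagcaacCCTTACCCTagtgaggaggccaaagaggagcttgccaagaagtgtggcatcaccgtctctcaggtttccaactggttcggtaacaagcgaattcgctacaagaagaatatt
Meis2: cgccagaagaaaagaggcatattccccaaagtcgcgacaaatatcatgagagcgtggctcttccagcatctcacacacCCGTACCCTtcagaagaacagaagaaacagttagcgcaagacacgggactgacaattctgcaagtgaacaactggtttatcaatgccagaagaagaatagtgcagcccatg
Pknox1: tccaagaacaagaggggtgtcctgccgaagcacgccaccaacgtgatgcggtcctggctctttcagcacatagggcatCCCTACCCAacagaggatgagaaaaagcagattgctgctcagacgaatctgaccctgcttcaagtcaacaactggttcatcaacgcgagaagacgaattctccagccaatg

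The homeoboxes fell into their families by sequence. Pbx3 matched Pbx2 at 156 of 189 bases (82.5%) and Pbx4 at 150 (79.4%), while it matched the Meis genes at 48.7% to 52.4% and the Pknox genes at 46.6% and 51.9%. The 3 Meis homeoboxes were 82.0% to 84.7% identical to each other and 65.1% to 71.4% identical to those of Pknox1 and Pknox2, which were 78.3% identical to each other. For all their likeness, no stretch of 50 bases in the annotated transcripts of one of the 8 genes occurred in a transcript of another. Pbx3, Meis3, Pbx4 and Pknox2 shared 0 such stretches with any other annotated gene on either strand. Meis1 shared 1843 of 10853, mostly with the overlapping gene model Gm37818 and the antisense gene Gm16140, and Pbx2 shared 179 of 3632 (4.93%) with its neighbour Gpsm3, whose annotated end overlaps it. Pknox1 shared 108 of 7199 with an antisense gene and Meis2 23 of 12126. Strand use is not stated for these libraries, so the values of Meis1, Pbx2 and Pknox1 are uncertain to that extent. Gpsm3 was at 0.277 to 0.546 FPKM and Gm37818 at 0.290 FPKM or less in every library. Gm16140 and AC166172.4, the antisense gene that overlaps Pknox1, have no row in the deposited table, so their levels could not be checked.

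The libraries were checked for depth and tissue. Column totals were 579698 and 582183 FPKM in mutants and 593256 and 584570 FPKM in wild types. FPKM keeps no fragment totals, but the spacing of the lowest values put the relative depth at 0.866 and 1.19 in mutant libraries 1 and 2, with wild-type library 1 as 1 and wild-type library 2 at 0.783, and about 1 fragment came to 0.0466 to 0.0756 FPKM in a gene whose exons add up to 2 kb. All 23 Hox genes in the table, which mark hindbrain and spinal cord, were at 0.292 FPKM or less. Pax6 itself was at 101 and 120.3 FPKM in mutants, against 28.8 and 27.0 FPKM in wild types. The Sey mutation changes a single base and RNA is still made from the allele, so this level is no check of the genotype.

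Pbx3 RNA rose strongly in mutant cortex. It was at 30.3 and 54.7 FPKM in mutants, against 5.54 and 4.0 FPKM in wild types. Both mutants lay far above both wild types, and the mutants differed 1.81-fold from each other. In bulk tissue fewer cells of a type and less RNA per cell cannot be told apart, and the same holds for more of either. The means were 42.5 ± 17.3 FPKM in mutants and 4.77 ± 1.09 FPKM in wild types (SD, n = 2 each), a ratio of 8.91. On the log2(FPKM + 0.5) scale, which understates changes of low genes, the log2 fold change was 2.98 (SE 0.31, 95% interval 2.19 to 3.78, limma adjusted p = 0.0219). That is a fold of 7.91. Pbx3 (ENSMUSG00000038718) spans chromosome 2 from 34171457 to 34373142 in GRCm38, on the minus strand. The antisense gene C79798 within that span was at 0 in both mutants and at 0.0725 and 0 FPKM in wild types. In mice Pbx3 is known for its part in the hindbrain circuit that drives breathing.

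Pbx3 was the only 1 of the 8 genes called at a limma adjusted p under 0.05, against 3.48% of the 15399 tested genes. It was called higher, as 2.02% of all tested genes were, and 0 of the 8 genes were called lower, against 1.46% of all. The call was lost without 3 of the 4 libraries. Leaving out mutant library 1 gave an adjusted p of 0.0477 and leaving out mutant library 2 one of 0.0972. Leaving out wild-type library 1 gave 0.145 and leaving out wild-type library 2 gave 0.179, and the log2 fold changes of these fits were 2.56 to 3.41. It was also lost with no filter on low values (adjusted p = 0.0677) and without the mean-variance trend of limma (0.0746). In the authors' deposited table the ratio for Pbx3 was 8.91 with a p-value of 6.26e-09, whose test is not stated.

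**Figure D1:**
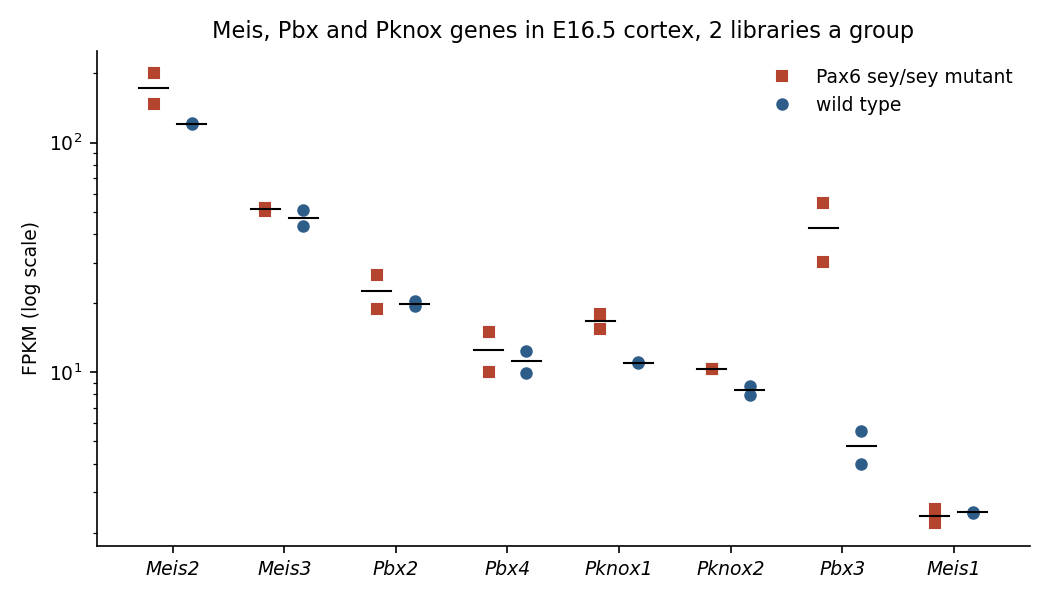
FPKM on a log scale of the 8 genes in each library, ordered by wild-type mean, with mutants as squares, wild types as circles and the mean of 2 libraries as a black bar. Pbx3 lies at 30.3 and 54.7 FPKM in mutants and at 5.54 and 4.0 FPKM in wild types, while the groups of Meis1, Meis3, Pbx2 and Pbx4 overlap.

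The other Pbx genes were not called. Pbx2, a broadly expressed member, was at 18.8 and 26.4 FPKM in mutants and at 20.4 and 19.4 FPKM in wild types. The mutants lay on either side of the wild types, and the log2 fold change was 0.16 (95% interval -0.28 to 0.60, limma adjusted p = 0.672). Pbx4, described in adult mice mainly in testis, was at 15.0 and 10.0 FPKM in mutants and at 12.4 and 9.94 FPKM in wild types. These groups overlapped too, with a log2 fold change of 0.14 (95% interval -0.43 to 0.70, limma adjusted p = 0.790). As folds of mutant over wild type, the intervals ran from 0.823 to 1.51 for Pbx2 and from 0.741 to 1.63 for Pbx4. Pbx2 lies on chromosome 17 from 34591266 to 34597400 and Pbx4 on chromosome 8 from 69832491 to 69872292, both on the plus strand.

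Among these 3 Pbx genes the order differed between the genotypes. Pbx3 made up 47.3% and 60.0% of their summed FPKM in mutants, against 14.5% and 11.99% in wild types. The ratio of Pbx3 to Pbx2 was 1.62 and 2.07 in mutants and 0.272 and 0.206 in wild types, and the ratio of Pbx3 to Pbx4 was 2.03 and 5.47 in mutants and 0.447 and 0.402 in wild types. Pbx3 was thus the highest of the 3 in both mutants and the lowest in both wild types. The sum of the 3 genes was 64.0 and 91.2 FPKM in mutants and 38.3 and 33.4 FPKM in wild types. Each of these differences gave p = 0.333 in the exact two-sided permutation test, the smallest value that 2 against 2 libraries allow. Adjusted by Benjamini-Hochberg over the 22 sums, shares and ratios tested in this way, that p was 0.407.

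Meis2 was the most abundant of the 8 genes in every library, and its level was higher in both mutants without a call. It was at 147 and 200.4 FPKM in mutants, against 121.1 and 120.7 FPKM in wild types. The wild types were nearly equal and the mutants 1.36-fold apart. The log2 fold change was 0.50 (SE 0.15, 95% interval 0.12 to 0.89, unadjusted p = 0.0196 and adjusted p = 0.169 in limma). In the authors' deposited table Meis2 had a ratio of 1.44 and a p-value of 0.00162. The size of the difference depended on the mutant libraries, with a log2 fold change of 0.73 without mutant library 1 and 0.28 without mutant library 2. Over the alternative settings the limma adjusted p ran from 0.0601 to 0.439, with the lowest value without mutant library 1. Meis2 is annotated on chromosome 2 from 115863064 to 116065839, minus strand. Its mean level stood above 96.9% of the tested genes.

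Meis3 and Meis1 had overlapping groups. Meis3, known from Xenopus as a factor of hindbrain patterning, was at 50.5 and 52.0 FPKM in mutants and at 43.3 and 50.7 FPKM in wild types (log2 fold change 0.13, 95% interval -0.11 to 0.37, limma adjusted p = 0.524). As a fold, that interval ran from 0.925 to 1.29. Meis1, best known from blood stem cells and leukaemia, was the lowest of the 8 genes in every library. It was at 2.2 and 2.55 FPKM in mutants and at 2.46 and 2.45 FPKM in wild types, with a log2 fold change of -0.041 (95% interval -0.51 to 0.43, limma adjusted p = 0.929). Meis2 exceeded Meis1 by 66.8-fold and 78.7-fold in mutants and by 49.3-fold in each wild type, on the same FPKM scale. Meis3 lies on chromosome 7 from 16175090 to 16186504, plus strand, and Meis1 on chromosome 11 from 18879817 to 19018985, minus strand.

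Both Pknox genes were somewhat higher in mutants, and neither was called. Pknox1, needed for mouse embryos to develop and a binding partner of Pbx proteins, was at 15.5 and 17.9 FPKM in mutants, against 11.1 and 10.97 FPKM in wild types. The groups did not overlap, and the log2 fold change was 0.58 (SE 0.11, 95% interval 0.29 to 0.86, unadjusted p = 0.00345 and adjusted p = 0.0687 in limma). In the authors' deposited table its ratio was 1.52 and its p-value 0.359. Pknox2, its close relative, was at 10.3 FPKM in each mutant and at 8.72 and 7.95 FPKM in wild types (log2 fold change 0.29, 95% interval 0.00 to 0.58, unadjusted p = 0.0488 and adjusted p = 0.255 in limma). Pknox1 lies on chromosome 17 from 31564734 to 31607693, plus strand, and Pknox2 on chromosome 9 from 36890982 to 37147407, minus strand.

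**Figure D2:**
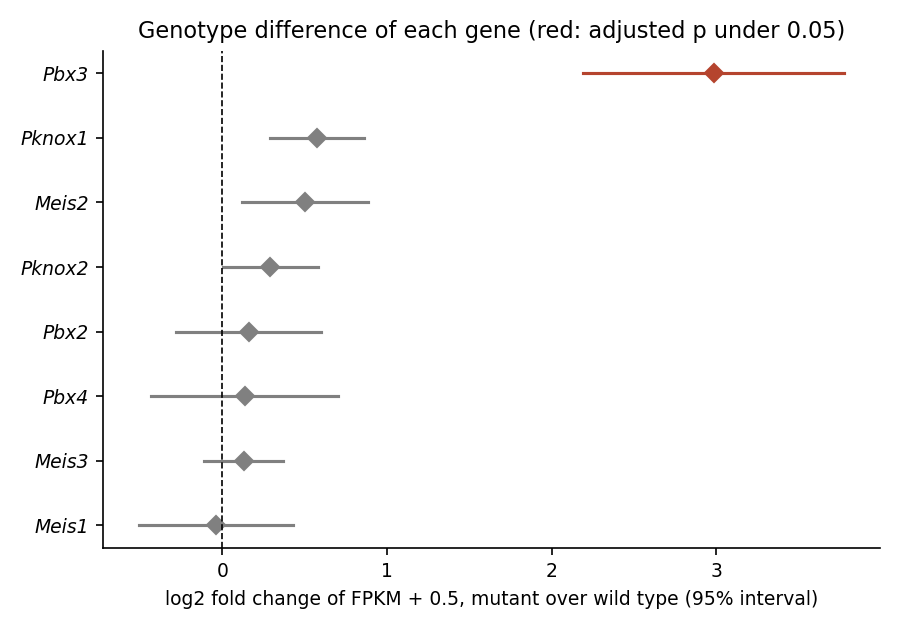
Difference of mutant minus wild-type log2(FPKM + 0.5) for the 8 genes, with 95% intervals from limma, in red where the adjusted p is under 0.05. Pbx3 stands at 2.98 and the other 7 genes between -0.041 and 0.58.

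As a group, 7 of the 8 genes had a log2 fold change above 0, against 50.1% of all tested genes, and the median was 0.23 against 0.00 over all tested genes. The groups did not overlap for 4 genes (Pbx3, Pknox1, Meis2 and Pknox2), against 51.6% of all tested genes. In all 4 both mutants lay above both wild types, as they did for 25.8% of all tested genes. The same 4 genes had an unadjusted p under 0.05 in limma, as 19.5% of all tested genes did. The direction of the small differences depended on single libraries for 3 genes. Meis1 was at 0.046 without mutant library 1, Pbx2 at -0.082 without mutant library 2, and Pbx4 at -0.017 without wild-type library 2 and -0.14 without mutant library 1.

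The order of levels differed in the place of Pbx3 and in that of Pbx4 and Pknox1. In mutants it ran Meis2, Meis3, Pbx3, Pbx2, Pknox1, Pbx4, Pknox2 and Meis1, and in wild types Meis2, Meis3, Pbx2, Pbx4, Pknox1, Pknox2, Pbx3 and Meis1. In mutants the ranges of Meis3 and Pbx3 overlapped, as did those of Pbx4 and Pknox2, while in wild types those of Pbx4 and Pknox1 did. All other neighbours in these orders had ranges that did not overlap, with 2 libraries each.

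The summed FPKM of the 8 genes was 289 and 374 in mutants, against 225 and 226 in wild types. Pbx3 made up 10.5% and 14.6% of that sum in mutants and 2.46% and 1.77% in wild types, a difference of 10.4 percentage points between the means. Without Pbx3 the sum was 259 and 319.6 FPKM in mutants and 219 and 222 FPKM in wild types. The share of Meis2 differed little, with 50.8% and 53.5% in mutants and 53.8% and 53.4% in wild types. By exact permutation, two-sided, p was 0.333 for the sum and for the Pbx3 share, the smallest value possible here, and 0.667 for the Meis2 share. The sum of the Meis genes was 199.6 and 255 FPKM in mutants and 167 and 174 FPKM in wild types, and that of the Pknox genes was 25.8 and 28.2 FPKM in mutants and 19.8 and 18.9 FPKM in wild types.

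**Figure D3:**
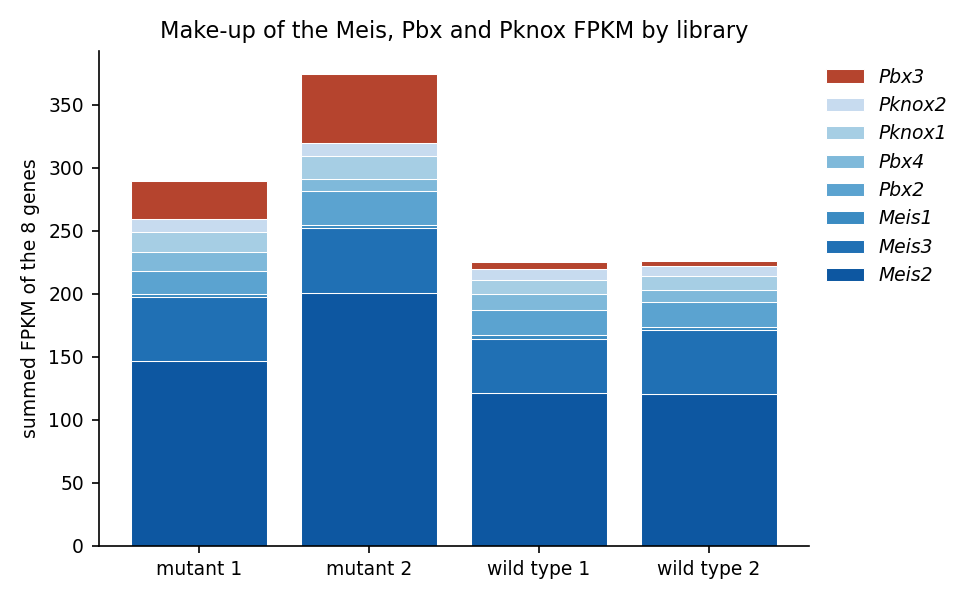
Summed FPKM of the 8 genes in each library, stacked by gene, with Pbx3 in red on top and the other genes in blue. The columns reach 289 and 374 FPKM in mutants and 225 and 226 FPKM in wild types, and Pbx3 takes 10.5% and 14.6% in mutants against 2.46% and 1.77% in wild types.

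Genes whose values over the 4 libraries were most like those of Pbx3 were found by the Euclidean distance between log2(FPKM + 0.5) values after each gene's mean was taken off, among 12717 other named genes. The nearest was Slc18a2, the vesicular monoamine transporter gene, at a distance of 0.18, with 9.53 and 15.0 FPKM in mutants and 1.31 and 0.966 FPKM in wild types. Next came Dlx6 (0.37), Cdca7 (0.42), Dlx5 (0.47) and Sp8 (0.48). Dlx5 and Dlx6 code for homeodomain factors of GABAergic precursors, Sp8 for a zinc finger factor of olfactory bulb interneurons and Cdca7 for a chromatin protein of dividing cells. All 5 were higher in mutant library 2 than in mutant library 1 and higher in wild-type library 1 than in wild-type library 2, as Pbx3 was. The choice by distance over these same 4 values favours such a shared order. Dlx6 overlaps an antisense gene and strand use is not stated, so its value is uncertain. Likeness over 4 libraries is a description and was given no test.

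**Figure D4:**
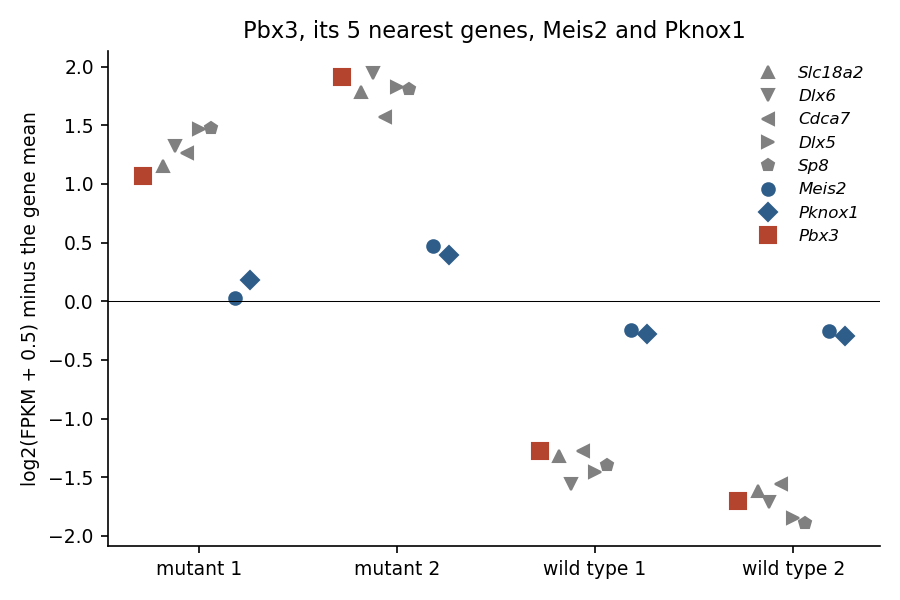
Values of log2(FPKM + 0.5) minus the mean of the gene over the 4 libraries, for Pbx3 (red squares), the 5 genes nearest to it (grey), and Meis2 and Pknox1 (blue). Pbx3 and its nearest genes lie above 1 in both mutants and below -1 in both wild types, while Meis2 and Pknox1 stay within 0.5 of 0.

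The rise of Pbx3 went with higher RNA of ventral forebrain genes. In the counts of listed genes from here on, rose and fell mean called by limma at an adjusted p under 0.05. The lists were chosen with earlier results of these data known, so such counts are a description and no test of a list. Over all tested genes 2.02% were called higher and 1.46% lower. Of 9 tested subpallial progenitor markers 7 rose and 0 fell. The sum of all 10 listed markers was 659.5 and 756 FPKM in mutants, against 121 and 86.0 FPKM in wild types. None of the 10 markers was at 0 in all libraries, and Gsx1 was under the filter at 0.349 FPKM or less. Set against that sum, Pbx3 was at 4.59% and 7.24% in mutants and at 4.57% and 4.65% in wild types, so mutant library 1 was level with the wild types and mutant library 2 above them. Dlx1 made up most of that sum in every library, at 388 and 449 FPKM in mutants and 68.9 and 53.2 FPKM in wild types. It overlaps an antisense gene, so its value and these percentages are uncertain. Of 10 GABAergic neuron markers 7 rose and 0 fell, with sums of 439 FPKM in each mutant and 285 and 216 FPKM in wild types. Pbx3 was at 6.91% and 12.5% of that sum in mutants and at 1.95% and 1.85% in wild types. Npy, the largest part of that sum in every library, was at 95.4 and 90.6 FPKM in mutants and 160 and 96.5 FPKM in wild types. Its log2 fold change was -0.42 and it was not called, while the other 9 markers were above 0. The percentages of Pbx3 thus depend in large part on Npy. The part of these markers in the result for Pbx3 was not tested.

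Markers of striatal projection neurons, another ventral cell type, showed no call in that direction. Of 11 tested markers 0 rose and 1 fell, and the median log2 fold change was 0.0016. Both mutants lay above both wild types for 4 markers and below them for 3, against 25.8% each way over all tested genes. Six3 was among the 4, at 0.811 and 1.03 FPKM in mutants and 0.0969 and 0.123 FPKM in wild types (limma adjusted p = 0.0955). The sums over all 12 listed markers were 46.0 and 40.7 FPKM in mutants and 63.4 and 71.6 FPKM in wild types. Foxp1 and Ppp1r1b made up most of these sums. The 1 that fell, Ppp1r1b (the DARPP-32 gene), was at 8.80 and 10.9 FPKM in mutants and 21.6 and 28.3 FPKM in wild types. Of 10 pallial cortex markers 6 fell and 0 rose, against 1.46% called lower and 2.02% called higher over all tested genes. The sums were 1037 and 971 FPKM in mutants and 1484 and 1604 FPKM in wild types. Meningeal markers stood apart in 1 library, with a sum of 59.9 FPKM in mutant library 1 and 19.9 FPKM in mutant library 2, against 16.7 and 12.9 FPKM in wild types. Of the 8 genes, Pbx3, Meis2, Meis3, Pbx2, Pknox1 and Meis1 were lower in that library than in mutant library 2, while Pbx4 was higher there, at 15.0 FPKM against 10.0 FPKM in mutant library 2, and Pknox2 was at 10.3 FPKM in both. Without that library the log2 fold change of Pbx3 was 3.41 (limma adjusted p = 0.0477), and the part of meningeal RNA in the levels of the 8 genes was not tested. Of 6 tested meningeal markers 0 were called by limma and 3 had an unadjusted p under 0.05. Endothelial and pericyte markers summed to 104 and 86.9 FPKM in mutants and 75.3 and 71.6 FPKM in wild types (0 of 10 called by limma, 4 with an unadjusted p under 0.05). Both mutants lay above both wild types for all 10 of them, against 25.8% of all tested genes, and their median log2 fold change was 0.38. The part of such RNA in the levels of the 8 genes was not tested. Choroid plexus markers summed to 2.05 FPKM or less in every library.

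Of the other TALE homeobox genes, 7 of 11 stood in the table and 3 passed the filter, with 0 called by limma in either direction and 2 with an unadjusted p under 0.05. Their median log2 fold change was 0.47, against 0.00 over all tested genes. Tgif1, a repressor gene linked to forebrain defects in humans, had the largest difference, at 3.41 and 4.21 FPKM in mutants and 1.55 and 0.751 FPKM in wild types (log2 fold change 1.42, SE 0.30, limma adjusted p = 0.0846). Its groups did not overlap. Tgif2, its relative, was at 7.23 and 5.49 FPKM in mutants and 4.53 and 4.32 FPKM in wild types, and Mkx, known from tendon, at 2.89 and 1.81 FPKM in mutants and 4.21 and 3.37 FPKM in wild types. The 4 Irx genes in the table reached at most 0.591 FPKM.

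Among described partners of Meis and Pbx proteins, 5 of 15 tested genes rose and 1 fell, with a median log2 fold change of 0.20. Over all tested genes 2.02% were called higher and 1.46% lower. The 5 partners that rose were Pax6, Dlx1, Dlx2, Dlx5 and Dlx6. The 4 Dlx genes are also among the subpallial markers counted above, so the counts are not independent. Dlx2, described as a partner of Meis2, was at 97.5 and 103 FPKM in mutants and 13.8 and 9.59 FPKM in wild types (log2 fold change 3.07, limma adjusted p = 0.00541). Dlx1 was at 388 and 449 FPKM in mutants and 68.9 and 53.2 FPKM in wild types, and it overlaps an antisense gene, so its value is uncertain. Tle4, a Groucho-family corepressor gene that is also a deep-layer marker, fell to 30.7 and 28.8 FPKM in mutants, against 42.1 and 42.3 FPKM in wild types (log2 fold change -0.50, limma adjusted p = 0.0366). Pbxip1, whose product binds Pbx proteins, was at 2.33 and 2.13 FPKM in mutants and 1.84 and 1.72 FPKM in wild types and was not called, and neither were the corepressor genes Hdac1 and Ncor1 or the ubiquitin ligase genes Crbn and Trim32. The partners Otx2, En1, En2, Tlx1 and Tlx3 were at 0.0920 FPKM or less.

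Of genes of the olfactory bulb lineage, where Meis2 is known to act with Pax6, 11 of 18 tested members rose and 0 fell. Over all tested genes 2.02% were called higher and 1.46% lower. The median log2 fold change of the 18 was 1.55. As this list too was chosen with earlier results known, its count is no test of the lineage. The called members with the smallest p were Sp9, Cdca7, Gad1, Etv1, Gad2 and Sp8. Sp9, a zinc finger factor related to Sp8, was at 29.7 and 32.7 FPKM in mutants and 2.65 and 2.11 FPKM in wild types, and Etv1, an ETS-family factor, at 26.7 and 27.4 FPKM in mutants and 10.4 and 10.6 FPKM in wild types. Dcx and Th have both been described as targets of Meis2 in this lineage. Dcx, which codes for the microtubule protein doublecortin of young neurons, was at 397 and 416 FPKM in mutants and 406 and 399 FPKM in wild types (log2 fold change 0.016, limma adjusted p = 0.903). Th, the tyrosine hydroxylase gene of dopaminergic neurons, stayed under the filter at 0.147 and 0.358 FPKM in mutants and was listed at 0 in both wild types. This list shares Sp8 and Sp9 with the subpallial list and Gad1, Gad2 and Calb2 with the GABAergic list.

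Pbx3 and Meis2 lie on the same chromosome as Pax6, whose annotated span is 105668900 to 105697364. The gap to Pax6 is 10.2 Mb for Meis2 and 71.3 Mb for Pbx3, and the other 6 genes are on other chromosomes. The sources used here do not say which strain's sequence flanks the Sey allele, and its part in these levels was not tested.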

How the data were processed

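RNA of 4 mouse cortex libraries was sequenced (2 mutant, 2 wild type). Per the file headers, the authors deposited FPKM for each library and group. They also deposited a fold for each gene (mutant FPKM over wild-type FPKM, a ratio) and its p-value. TopHat2 2.0.9, Cufflinks 2.2.1, edgeR and the builds GRCm38.p4 and mm10 stand in the submitters' processing notes, without their roles. Strand use, RNA selection and scaling between libraries are not given in the sources used here. Absolute depth is unknown, and 2 libraries a group limit the precision.

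Values were transformed to log2(FPKM + 0.5) for the 15399 genes that reached 0.5 FPKM in 2 libraries. Genotype was tested, two-sided, with limma 3.58.1 in R 4.3.3 (lmFit, eBayes with a mean-variance trend), and p-values were adjusted by Benjamini-Hochberg over the whole table, with calls at 0.05. Sums, shares and ratios were tested with the exact permutation test over libraries. The script was tested on simulated data. Sequences and coordinates come from GENCODE M21, and the homeobox was found by translating the longest coding transcript that holds the loop motif. The genes and lists were chosen with earlier results of these data known. Named were all 8 genes, Pax6, up to 6 called genes of each gene list by smallest p, and the 5 genes nearest to Pbx3 that are not predicted genes, clones or pseudogenes. Genes of the lists that were named without being called were chosen after their values were seen. Alternatives were other pseudocounts, filters and scalings, no trend, a replicate block and each library left out. The thalamus, microglia and erythroid marker lists had 0 genes called by limma, with 3, 2 and 0 at an unadjusted p under 0.05 in that order.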

Additional observations from a re-analysis of the deposited data

How the results depend on the processing

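The log2 fold change of Pbx3 was above 0 under all 12 alternatives and between 2.56 and 3.41. It lost its call with no filter on low values (2.98, adjusted p = 0.0677), without the mean-variance trend (2.98, adjusted p = 0.0746) and when mutant library 2 or either wild-type library was left out. A group then has 1 library, assumed to vary as the other group does. Leaving out 1 library gave 2.56 to 3.41. Of the 8 genes 0 were called with no filter and 0 without the trend, and 0 to 1 with a library left out. Over all genes the 536 calls became 61 with no filter, 54 without the trend and 7 to 59 with a library left out. Same-numbered libraries showed little shared deviation (r = 0.049 across genes), so the numbers were not taken as pairs, and with the replicate number as a block Pbx3 kept its call (adjusted p = 0.0346) and 374 genes were called in all. Signs changed with a library left out for Meis1 (-0.13 to 0.046, above 0 without mutant library 1), Pbx2 (-0.082 to 0.40, below 0 without mutant library 2) and Pbx4 (-0.14 to 0.41, below 0 without mutant library 1 and, at -0.017, without wild-type library 2). The difference in summed FPKM was 106 and lay between 63.9 and 149 with a library left out, and at 110.0 after division by library totals. That of the Pbx3 share was 10.4 percentage points, between 8.35 and 12.5. Levels under the filter, such as those of Th, rest on few fragments.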
